A study of Rattus norvegicus with 60 samples.

Results

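Alveolar type I cell genes and genes of the caveolar coat were followed in lungs of rats that had inhaled crystalline silica. The 10 genes were Ager, Aqp5, Pdpn, Hopx, Clic5 and Rtkn2 of the type I cell and Cav1, Cav2, Cavin1 and Cavin2 of the caveola, out of 21792 genes on the array. They were chosen by name. Of the 10, 8 stood in the deposited table under their symbol, Cavin1 as Ptrf, and 2 were matched through their gene identifier because the table gives older symbols, Rtkn2 as Plekhk1 and Cavin2 as Sdpr. Each had 1 probe, and each was detected on 60 of 60 arrays at a detection p under 0.05.

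Male CDF Fisher 344 rats, approximately 3 months old, breathed silica at 15 mg/m3, 5 days in all with 6 hours daily, or filtered air alongside. Lungs were taken 1, 2, 4, 8 and 16 weeks after the last exposure from 8 silica rats and 4 air rats at each time, 60 rats in all. Total lung RNA was hybridised to Illumina bead arrays, 1 array per rat. Levels are given as log2 normalized signal, and effects as the log2 difference of silica minus air at the same week with its standard error. A gene was called where its adjusted p was under 0.05, by limma with Benjamini-Hochberg adjustment over the 13919 genes tested. In bulk lung RNA, fewer cells of a type and less RNA per cell cannot be told apart.

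Type I cells are thin, very broad epithelial cells that cover most of the gas exchange surface, and they are easily injured by inhaled particles. Type II cells, which make surfactant, divide and can become new type I cells after injury. Caveolae are flask-shaped pits of the plasma membrane that are abundant in type I cells and in the capillary endothelium facing them. Caveolins sit in the membrane of the pit, and cavins form a coat on its cytoplasmic side that keeps it in shape.

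The sequences just before the annotated starts of Ager and Aqp5, the genes with 40 of 40 silica rats below the air mean of their week, and of Cav1 and Cav2, neighbouring genes of which only Cav2 was called, are shown first. All are RefSeq sequences of the rat build GRCr8, 250 bases each, 5′ to 3′ on the strand of the gene. The Ager stretch is chr20:4155686-4155935 on the minus strand. The Aqp5 stretch is chr7:132601278-132601527 on the plus strand. The Cav1 stretch, the first of 2 annotated, is chr4:46606288-46606537, and the Cav2 stretch is chr4:46582431-46582680, both on the plus strand. Capitals mark the GC box GGGCGG and the TATA motif TATAAA, each searched on both strands.
Ager: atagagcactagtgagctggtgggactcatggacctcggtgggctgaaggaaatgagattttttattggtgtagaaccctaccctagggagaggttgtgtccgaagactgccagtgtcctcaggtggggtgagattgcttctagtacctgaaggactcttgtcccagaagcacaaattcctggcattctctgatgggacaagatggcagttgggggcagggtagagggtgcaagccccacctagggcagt
Aqp5: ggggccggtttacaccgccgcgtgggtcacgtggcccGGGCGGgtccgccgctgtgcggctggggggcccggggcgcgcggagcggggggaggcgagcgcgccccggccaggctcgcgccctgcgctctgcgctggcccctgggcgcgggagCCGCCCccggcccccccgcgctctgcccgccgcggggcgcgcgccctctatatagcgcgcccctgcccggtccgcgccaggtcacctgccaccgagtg
Cav1: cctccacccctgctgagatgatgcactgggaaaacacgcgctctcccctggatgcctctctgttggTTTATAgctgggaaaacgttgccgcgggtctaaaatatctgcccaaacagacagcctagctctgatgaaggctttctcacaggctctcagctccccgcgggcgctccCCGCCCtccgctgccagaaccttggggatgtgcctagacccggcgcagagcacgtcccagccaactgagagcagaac
Cav2: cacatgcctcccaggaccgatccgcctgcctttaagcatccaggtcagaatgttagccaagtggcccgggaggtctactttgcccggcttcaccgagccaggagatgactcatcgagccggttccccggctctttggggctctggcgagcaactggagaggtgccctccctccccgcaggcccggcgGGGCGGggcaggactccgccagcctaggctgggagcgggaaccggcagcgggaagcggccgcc

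The Ager stretch held no GC box and 2 CG dinucleotides at 53.2% G and C, whereas the Aqp5 stretch held 2 GC boxes and 41 CG dinucleotides at 83.2%. Across 33469 rat promoters the median G and C content was 51.2%. A GC box lay in the stretch of 7 of the 10 genes, against 30.5% of all promoters. The TATA motif lay in Cav1 of the 10 genes, against 12.9% of all promoters. GGAATG, a motif of the TEAD factors through which YAP and TAZ act, lay in Cavin2 of the 10 genes, against 12.1% of all promoters. CTCAAG, a core of the NKX2-1 motif, lay in 0 of the 10, against 13.3%. In the sequences shown no GC box overlapped a TATA motif. A match of letters is a description, and no match says only that the letters are absent from that stretch.

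Averaged over the 5 weeks, 6 of the 10 genes were lower after silica and 0 were higher. In this comparison 20.6% of all genes tested were called lower. The genes were Ager, Aqp5, Pdpn, Hopx and Clic5 of the type I cell and Cav2 of the caveola. Their log2 differences ran from -0.26 for Aqp5, which fell by 16.7%, to -0.12 for Pdpn, which fell by 7.72%. Rtkn2, Cav1, Cavin1 and Cavin2 were not called. The median over the 10 genes was -0.12, and that over all genes tested was -0.01. The count of 6 was the same when any 1 rat was left out.

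**Figure D1:**
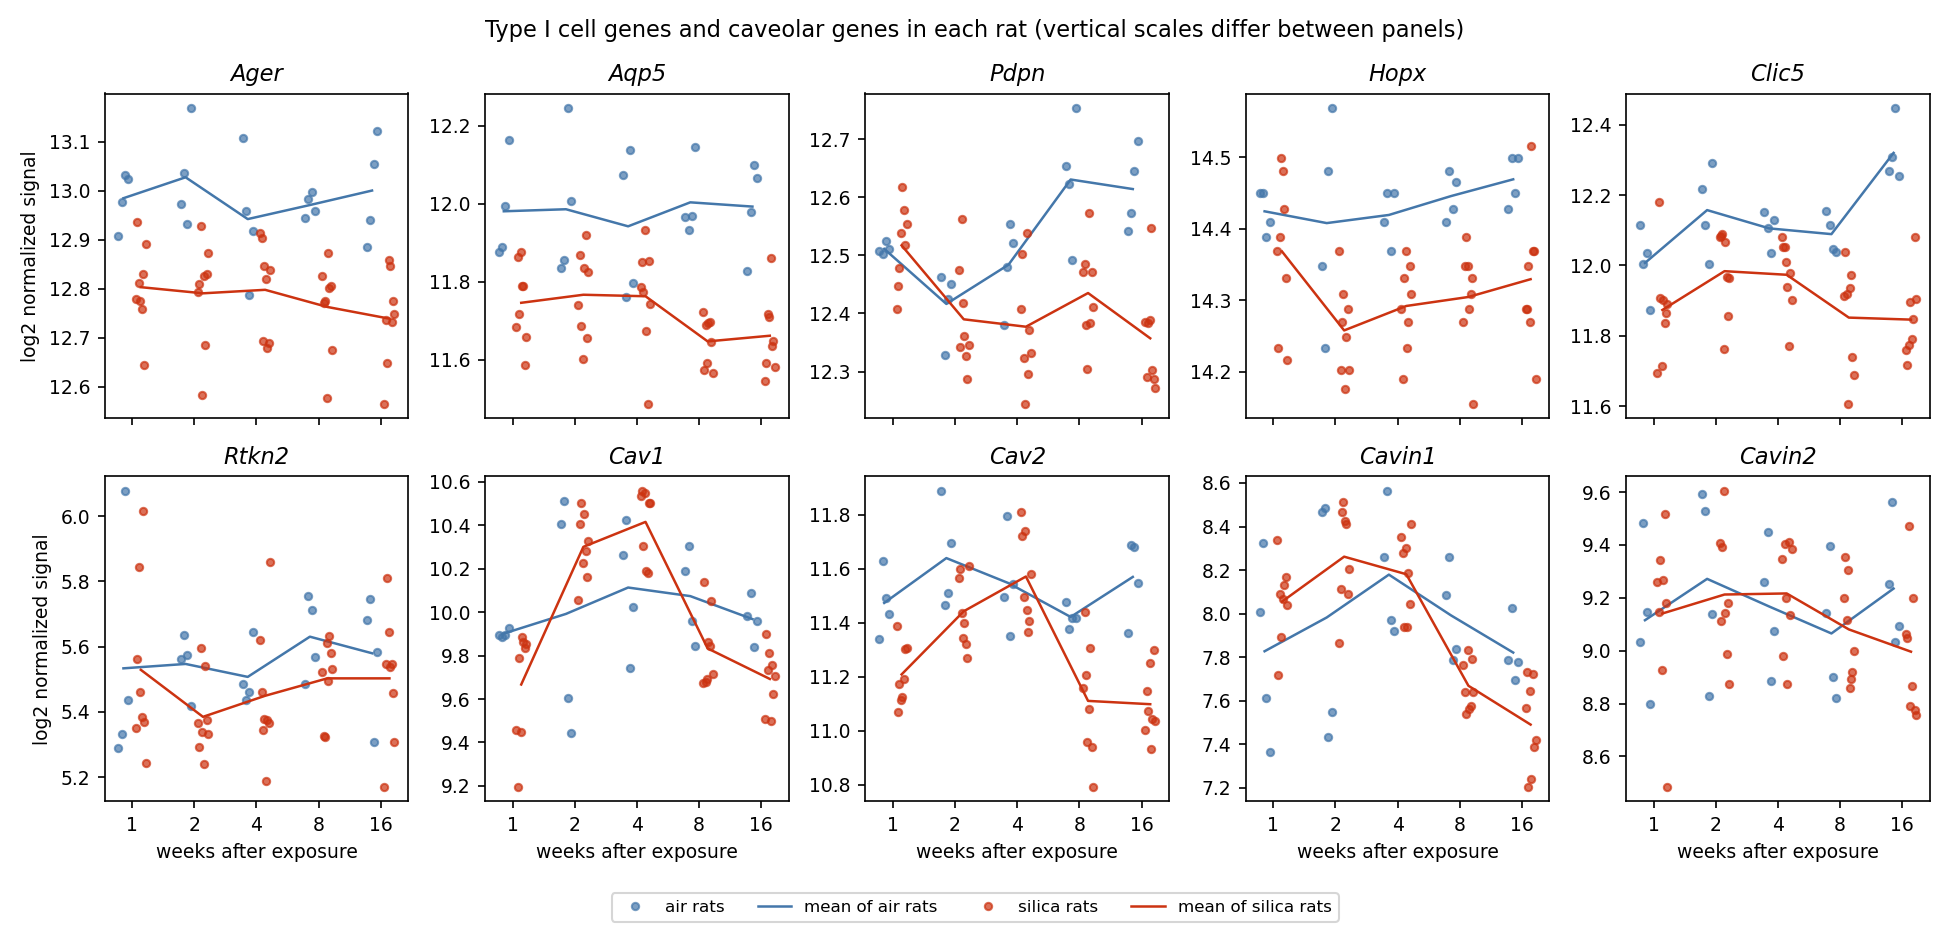
Log2 normalized signal (vertical axis, own scale in each panel) of the 10 genes by weeks after exposure, with 1 point per rat and lines through the group means, blue for air and red for silica. All 5 air means of Ager, Aqp5, Hopx and Clic5 lie above all 5 silica means, while the lines of Pdpn, Cav1, Cav2, Cavin1 and Cavin2 cross.

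Ager encodes the receptor for advanced glycation end products, which type I cells carry at high levels on their basal side. At 2 weeks the 4 air rats read 12.97, 13.04, 12.93 and 13.17, and the 8 silica rats ran from 12.58 through a median of 12.82 to 12.93. Every silica rat was below every air rat. The log2 difference was -0.24 ± 0.06 (adjusted p = 0.00827, limma). That call was lost without air rat 4 of 2 weeks. It was also lost under 2 of 20 other settings of the processing or the fit, each week fitted alone among them. At 8 weeks the air rats read 12.94, 12.98, 12.997 and 12.96, and the silica rats ran from 12.58 through 12.79 to 12.87. Again the groups did not overlap, with a difference of -0.21 ± 0.06 (adjusted p = 0.0197, limma). The 8-week call was lost in 3 of 12 omissions of 1 rat and under 6 of 20 other settings, median scaling and each week fitted alone among them. In week 16 the air rats read 12.88, 12.94, 13.06 and 13.12, and the silica rats ran from 12.57 through 12.74 to 12.86. The groups were again apart, by -0.26 ± 0.06 (adjusted p = 0.0009, limma). The 16-week call was lost under 1 of 20 other settings, median scaling.

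At 1 and 4 weeks Ager was not called. The differences were -0.18 (adjusted p = 0.0818, limma) and -0.14 (adjusted p = 0.152, limma), and in both weeks 8 of 8 silica rats were below the air mean. Over the 5 weeks 40 of 40 silica rats were below the air mean of their week, and the mean difference was -0.21 ± 0.03 (adjusted p = 1.2e-08, limma). The silica effect had no called trend over time (slope -0.01 per doubling of weeks, adjusted p = 0.864, limma).

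Aqp5 encodes aquaporin 5, a water channel of the apical membrane of type I cells. At 8 weeks the air rats read 11.97, 11.93, 11.97 and 12.15, and the silica rats ran from 11.57 through 11.67 to 11.72. The groups did not overlap, and the difference was -0.36 ± 0.07 (adjusted p = 0.00066, limma). Aqp5 thus fell by 21.9%. The 8-week call was lost under 1 of 20 other settings, median scaling. Among rats of 16 weeks, the air rats read 11.83, 11.98, 12.10 and 12.07, and the silica rats ran from 11.55 through 11.64 to 11.86. The highest silica rat was above the lowest air rat, and the difference was -0.33 ± 0.07 (adjusted p = 0.000601, limma).

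At 1, 2 and 4 weeks Aqp5 differed by -0.23, -0.22 and -0.18, none of them called (adjusted p = 0.0624, 0.0515 and 0.146, limma). As for Ager, 40 of 40 silica rats were below the air mean of their week. The mean difference of Aqp5 over the 5 weeks was -0.26 ± 0.03 (adjusted p = 3.8e-09, limma).

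Pdpn encodes podoplanin, a small mucin-like membrane glycoprotein that type I cells share with lymphatic endothelium and mesothelium. It did not differ at first: at 1 week the air rats read 12.51, 12.50, 12.52 and 12.51, and the silica rats ran from 12.41 through 12.53 to 12.62 around them. The 1-week difference was 0.01 ± 0.05, with a 95% confidence interval from -0.10 to 0.11. At 2 and 4 weeks it was -0.03 and -0.11, neither called. At 8 weeks the air rats read 12.65, 12.62, 12.49 and 12.75, and the silica rats ran from 12.30 through 12.44 to 12.57. The groups overlapped at 1 air rat, and the difference was -0.20 ± 0.05 (adjusted p = 0.0128, limma). The 8-week call was lost in 1 of 12 omissions of 1 rat and under 7 of 20 other settings, median scaling and each week fitted alone among them. The air rats of 16 weeks read 12.54, 12.57, 12.64 and 12.70, and the silica rats ran from 12.27 through 12.34 to 12.55. A single silica rat reached the air range, and the difference was -0.26 ± 0.05 (adjusted p = 0.000245, limma). The 16-week call was lost under 1 of 20 other settings, median scaling.

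Pdpn was 1 of 2 genes of the 10 whose silica effect had a called trend over time, in a test that called 0.776% of all genes tested as falling. Its slope was -0.07 ± 0.02 per doubling of weeks (adjusted p = 0.0189, limma), and the slope in air rats alone was 0.04 ± 0.01 (adjusted p = 0.117, limma). The call was lost without air rat 4 at 16 weeks. In air rats alone 0 of the 10 genes had a called trend, against 1.93% of all genes tested, and 2 passed an unadjusted p under 0.05 (limma), as did 11.5% of all genes tested.

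Hopx encodes a homeodomain protein that does not bind DNA itself and that marks type I cells from early in their formation. The largest spread of any Hopx group was in the air rats of 2 weeks, which read 14.35, 14.23, 14.48 and 14.57 against silica rats from 14.18 through 14.26 to 14.37. The 2-week difference was -0.15 ± 0.05 (adjusted p = 0.0542, limma). At 8 weeks every silica rat, from 14.16 to 14.39, was below every air rat, from 14.41 to 14.48, though the difference of -0.14 was not called (adjusted p = 0.0785, limma). The 16-week air rats read 14.43, 14.50, 14.45 and 14.50, and the silica rats ran from 14.19 through 14.32 to 14.52. One silica rat exceeded all air rats, and the difference of -0.14 ± 0.05 was called (adjusted p = 0.0424, limma). That call was lost in 7 of 12 omissions of 1 rat and under 12 of 20 other settings, the stretch of the deposited array order as a block among them. Over the 5 weeks 36 of 40 silica rats were below their air mean, by -0.12 ± 0.02 on average (adjusted p = 2e-05, limma).

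Clic5 encodes a chloride intracellular channel family protein tied to the actin cytoskeleton through ezrin. At 8 weeks the air rats read 12.15, 12.12, 12.05 and 12.04, and the silica rats ran from 11.61 through 11.92 to 12.04. The highest silica rat met the lowest air rats. The difference was -0.24 ± 0.07 (adjusted p = 0.0296, limma), a call lost in 6 of 12 omissions of 1 rat and under 8 of 20 other settings. In week 16 the air rats read 12.27, 12.31, 12.45 and 12.26, and the silica rats ran from 11.72 through 11.82 to 12.08. The groups were well apart, and the difference was -0.47 ± 0.07 (adjusted p = 1.45e-06, limma). Clic5 thus fell by 27.99%. The air mean at 16 weeks, 12.32 ± 0.09 (SD, n = 4), was the highest of the 10 group means of Clic5.

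Earlier the Clic5 differences were -0.13, -0.17 and -0.13 at 1, 2 and 4 weeks, none called. The slope of the silica effect, -0.07 per doubling of weeks, was not called (adjusted p = 0.0827, limma). Over the 5 weeks 39 of 40 silica rats were below their air mean, and the mean difference was -0.23 ± 0.03 (adjusted p = 8.6e-08, limma).

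Rtkn2 encodes rhotekin 2, an effector of small GTPases and a marker of type I cells in single-cell atlases. Its probe was dim, with 67.6 to 119 units of raw signal on arrays whose medians ran from 60.2 to 97.8, so little room was left to measure a loss. The mean difference over the 5 weeks was -0.09 ± 0.05, with a 95% confidence interval from -0.19 to 0.02 (adjusted p = 0.209, limma). Among rats of 16 weeks, the air rats read 5.68, 5.75, 5.31 and 5.58, and the silica rats ran from 5.17 through 5.54 to 5.81, spanning the air range.

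By week, 0, 1, 0, 5 and 6 of the 10 genes were called lower from the first week studied to the last, and 0 were called higher at any week. Of all genes tested, 1.13%, 4.53%, 3.64%, 4.14% and 12.2% were called lower at those weeks, and 2.67%, 4.74%, 2.78%, 4.77% and 10.5% higher. Groups with every silica rat below every air rat numbered 0, 1, 0, 3 and 3 of the 10 genes. Of all genes tested, the same held for 1.08%, 1.39%, 1.91%, 2.35% and 6.6% at those weeks. At 1 week 3 and at 4 weeks 4 of the 10 genes passed an unadjusted p under 0.05 (limma), as did 15.2% and 20.8% of all genes tested. The 8-week count moved most. It was 0 with median scaling of the arrays in place of quantile normalization, 2 without air rat 3, and 3 without air rat 1, 2 or 4 or silica rat 4 or 8 of that week. Of all genes tested, median scaling called 403 at 8 weeks, 25.3% of them lower. Quantile normalization called 1240, 46.5% of them lower. At 2 weeks 3 genes were called lower and Cav1 higher without air rat 1 or 2, 2 were called lower without silica rat 1, 2 or 6, and 0 were called without air rat 4. A single gene, Aqp5, was called at 1 week without air rat 1, silica rat 2 or silica rat 4, and at 4 weeks without air rat 2. The 16-week count was 5 to 6 when any 1 rat was left out, 3 with median scaling, and 7 with each week fitted alone. Of all genes tested, median scaling called 1978 at 16 weeks and quantile normalization 3159.

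**Figure D2:**
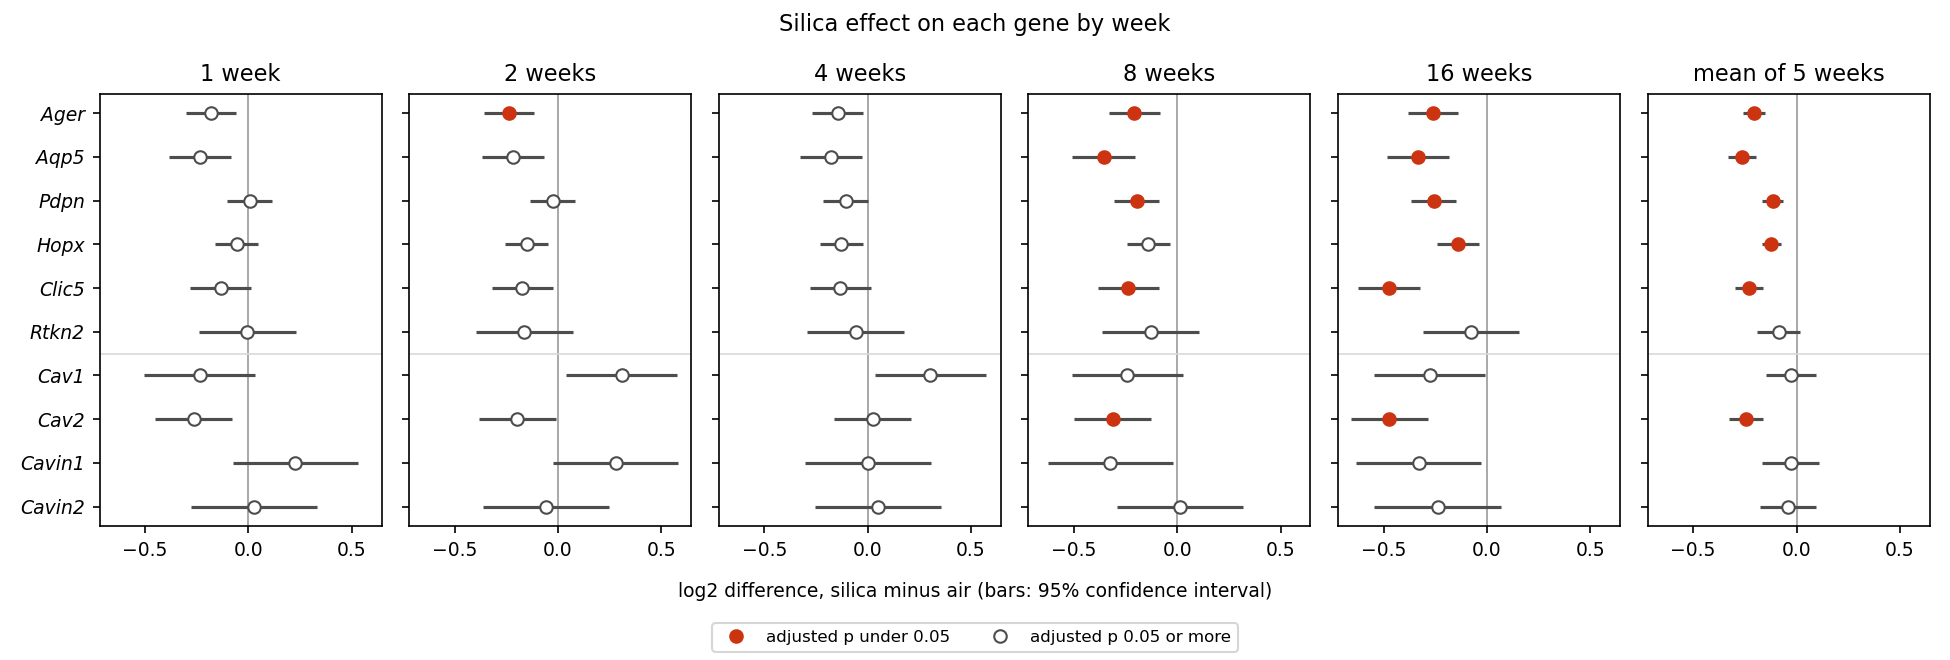
Log2 difference of silica minus air (horizontal axis) for the 10 genes (rows) at each week and for the mean of the 5 weeks, with 95% confidence intervals as bars and filled points where the adjusted p was under 0.05. All filled points lie below 0, and Cav1 lies on opposite sides of 0 at 2 and 4 weeks and at 8 and 16 weeks.

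Whether the silica effect differed among the 5 weeks was tested with an F-test, which called 0 of the 10 genes and 1.96% of all genes tested. At an unadjusted p under 0.05, 5 genes passed, namely Pdpn, Clic5, Cav1, Cav2 and Cavin1, as did 14.5% of all genes tested. The smallest adjusted p was that of Cav1 at 0.0557 (limma). In this fit, a call in an early week and none in a later one, or the reverse, is not shown to be a difference between weeks. The arrays were deposited in 8 stretches, described at the end, and a fit with the stretch as a block was added after seeing the data. With that block the F-test called 4 genes, Pdpn, Clic5, Cav1 and Cav2, and 6.19% of all genes tested. Clic5 then joined Pdpn and Cavin1 as a called falling slope of the silica effect, against 2.12% of all genes tested.

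Of the caveolins, Cav2 was called at 8 and 16 weeks and Cav1 at no week in the fit over all weeks, and the difference between them was not tested. Cav1 encodes caveolin 1, without which caveolae do not form in non-muscle cells. At 1 week its air rats read 9.90, 9.89, 9.90 and 9.93, and its silica rats ran from 9.20 through 9.81 to 9.89. At 2 weeks the air rats read 10.41, 10.51, 9.61 and 9.44, and the silica rats ran from 10.05 through 10.30 to 10.50. Air rats 3 and 4 thus lay below every silica rat, and air rat 2 above every one. The difference at 2 weeks was 0.31 ± 0.13 (adjusted p = 0.149, limma), and Cav1 was called higher without air rat 1 or without air rat 2. That standard error and those calls rest on a spread shared by all groups, with a pooled SD of 0.22. The SD of the 2-week air rats themselves was 0.55, and that of the 2-week silica rats was 0.15. At 4 weeks it was 0.30 ± 0.13 (adjusted p = 0.175, limma), with silica rats from 10.18 to 10.56 and air rats from 9.74 to 10.43. At 8 and 16 weeks the sign had turned, to -0.24 and -0.28, neither called (adjusted p = 0.316 and 0.14, limma). With each week fitted alone Cav1 was called lower at 16 weeks (adjusted p = 0.0264, limma). Over the 5 weeks the Cav1 differences cancelled to -0.03 ± 0.06 (adjusted p = 0.767, limma).

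Cav2 encodes caveolin 2, which forms hetero-oligomers with caveolin 1 and depends on it to reach the cell surface. At 8 weeks its air rats read 11.48, 11.38, 11.42 and 11.42, and its silica rats ran from 10.79 through 11.12 to 11.44. Of the silica rats 7 of 8 were below the air mean, and the difference was -0.31 ± 0.09 (adjusted p = 0.0225, limma). That call was lost in 4 of 12 omissions of 1 rat and under 7 of 20 other settings. The air rats of 16 weeks read 11.36, 11.69, 11.68 and 11.55, and the silica rats ran from 10.93 through 11.06 to 11.30. No silica rat reached the air rats, and the difference was -0.47 ± 0.09 (adjusted p = 9.35e-05, limma). Cav2 thus fell by 27.9%. At 1, 2 and 4 weeks the Cav2 differences were -0.26, -0.20 and 0.02, none called. The mean over the 5 weeks was -0.24 ± 0.04 (adjusted p = 3.08e-06, limma), with 35 of 40 silica rats below their air mean.

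Cavin1 encodes the cavin that is needed for caveolae to form, and Cavin2 one that bends the membrane and binds phosphatidylserine. Cavin1 began above air and ended below it. At 1 week its air rats read 8.01, 8.33, 7.61 and 7.36, and its silica rats ran from 7.72 through 8.08 to 8.34. The 16-week air rats read 7.79, 8.03, 7.70 and 7.78, and the silica rats ran from 7.21 through 7.50 to 7.73. The air spread at 1 week covered nearly all silica rats, while at 16 weeks 8 of 8 silica rats were below the air mean. The differences were 0.23, 0.28, 0.00, -0.32 and -0.33 from 1 to 16 weeks, none called. Their slope was -0.17 ± 0.05 per doubling of weeks (adjusted p = 0.0458, limma), the other called trend among the 10 genes. Leaving out 1 rat ended this call in 25 of 60 omissions, and the slope in air rats alone was 0.00 ± 0.04. The slope call was also lost with median scaling and without the silica-only stretches. With each week fitted alone Cavin1 was called lower at 16 weeks (adjusted p = 0.0448, limma).

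Cavin2 was called at no week and in no trend in the fit without a block. At 16 weeks its air rats read 9.25, 9.56, 9.03 and 9.09, and its silica rats ran from 8.76 through 8.96 to 9.47. The ranges overlapped widely, and the difference was -0.24 ± 0.15 (adjusted p = 0.29, limma). With the stretch as a block it was called, at an adjusted p of 0.0377 (limma). The mean over the 5 weeks was -0.04 ± 0.07, with a 95% confidence interval from -0.18 to 0.09.

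Cav1, Cavin1 and Cavin2 varied more between rats of 1 group than the 6 type I cell genes and Cav2. The SD within groups, pooled over the 10 groups, was 0.22 for Cav1, 0.25 for Cavin1 and 0.26 for Cavin2, and 0.15 for Cav2. It was 0.19 for the dim Rtkn2, ran from 0.08 for Hopx to 0.12 for Aqp5 among the other type I cell genes, and its median over all genes tested was 0.15. Much of the Cavin1 spread lay in the air rats. Air rats 1 and 2 read above air rats 3 and 4 of the same week in 5 of 5 weeks for Cavin1, in 4 of 5 weeks for Cav1 and Cavin2, and in 0 of 5 weeks for Cav2, Aqp5 and Pdpn. What these numbers stand for is not given in the labels, and with the number as a block 3 of the 10 genes in place of 5 were called at 8 weeks. Of all genes tested, that block called 1324 at 8 weeks in place of 1240. The numbers go partly with the stretches of the deposited order. In every week stretch 5 held air rat 1 or 2, and stretch 3 held air rat 3 or 4. For Cavin2 the air rat of stretch 5 was the highest air rat of its week each time. Number and stretch were not separated by a test.

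**Figure D3:**
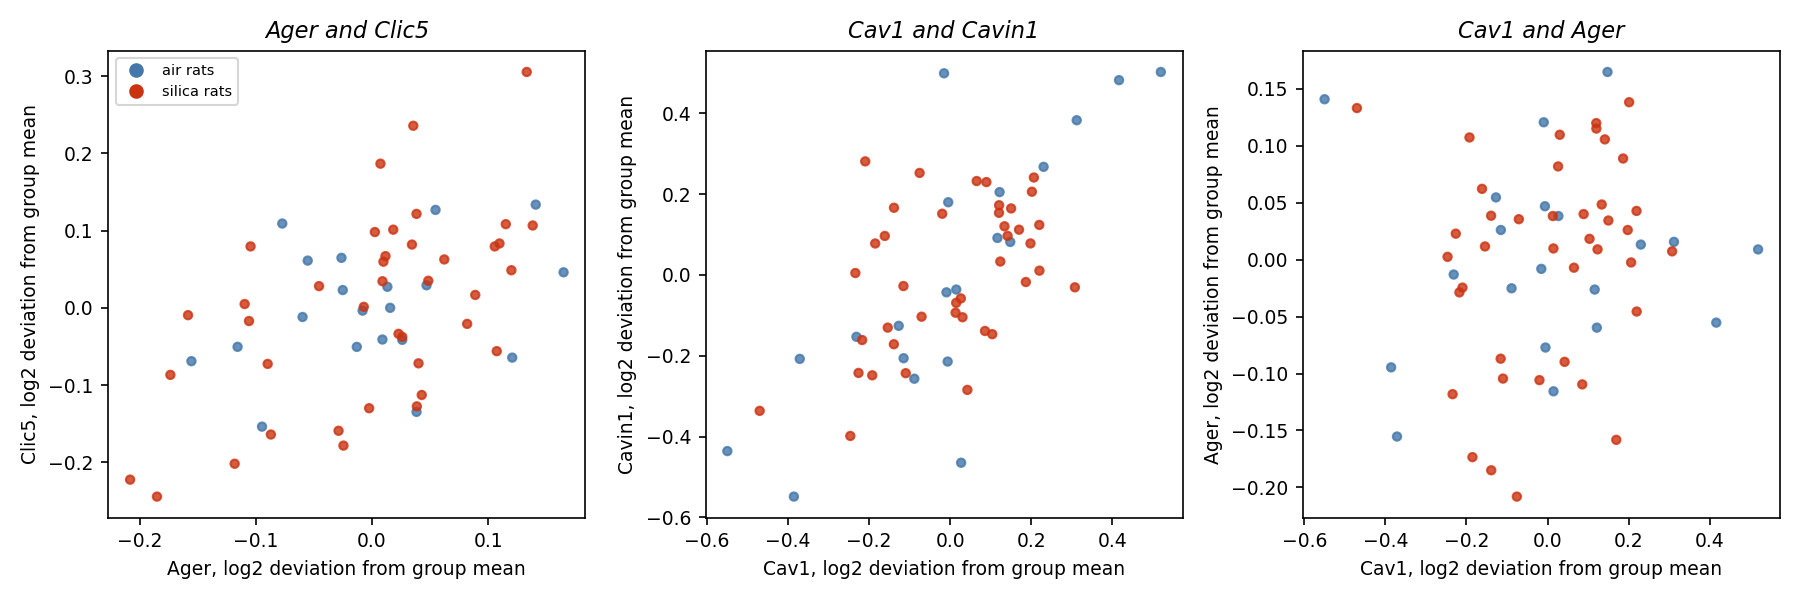
Deviations of 3 pairs of genes from their group means, in log2 units on both axes, with 1 point per rat, blue for air and red for silica. Ager and Clic5 (r = 0.508) and Cav1 and Cavin1 (r = 0.655) rise together across 60 rats, while Cav1 and Ager (r = 0.111) do not line up.

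Deviations from the group means were correlated for all 45 pairs of the 10 genes over 60 rats, with permutations within groups and Benjamini-Hochberg adjustment over the 45. Cav1 and Cavin1 gave r = 0.655 and rho = 0.592 (permutation p = 2e-05 for both, adjusted 0.0009), and r = 0.587 without the 2 rats farthest out on Cav1. Ager and Clic5 gave r = 0.508 (permutation p = 0.00015, adjusted 0.0034) and rho = 0.45 (permutation p = 0.00087, adjusted 0.0098), and r = 0.411 without the 2 farthest. Cavin1 and Cavin2 gave r = 0.506 (permutation p = 0.00059, adjusted 0.0078) and rho = 0.516 (permutation p = 0.0004, adjusted 0.0081), and r = 0.449 without the 2 farthest.

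Across the 2 classes, Clic5 went with Cav2 at r = 0.472 (permutation p = 0.00069, adjusted 0.0078) and rho = 0.485 (permutation p = 0.00054, adjusted 0.0081), and at r = 0.552 without the 2 farthest. Aqp5 ran against Cavin1 at r = -0.468 (permutation p = 0.0034, adjusted 0.026) and rho = -0.427 (permutation p = 0.005, adjusted 0.038), and at r = -0.44 without the 2 farthest. Aqp5 also ran against Cavin2 at r = -0.432 (permutation p = 0.0024, adjusted 0.021) and rho = -0.456 (permutation p = 0.0012, adjusted 0.011), and at r = -0.374 without the 2 farthest. Cav1 and Cav2, whose proteins assemble together, gave r = 0.317 (permutation p = 0.035, adjusted 0.17) and rho = 0.299 (permutation p = 0.039, adjusted 0.17), and r = 0.447 without the 2 farthest. In all, 39 of the 45 pairs had an adjusted p of r at 0.05 or more. All 60 arrays share 1 normalization, which can tie genes together. The permutations crossed the stretches of the deposited order, described at the end, so a level shared within a stretch can tie genes too. The part of the stretches in these correlations was not tested.

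The genes whose deviations were most like those of Ager, over 60 arrays, were LOC499295, Rapgef4, Fbxo10, Ptprg and Mrpl53, with r from 0.561 to 0.576. Those most like Cav1 were Golph3, Usp25, Tmem87a, Tnfsf10 and Atad1, with r from 0.858 to 0.879. Cav1 had 114 genes at r over 0.7 among 13918 others, Cavin1 had 48 and Cavin2 had 194. Aqp5 had 19, Cav2 had 2, and Ager, Pdpn, Hopx, Clic5 and Rtkn2 had 0. These correlations are a description, with no test.

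Of 17 other type I cell genes tested, 6 were lower over the 5 weeks and 0 higher, with a median of -0.10, against 20.6% of all genes tested called lower. The lower ones were Gprc5a, a retinoic acid inducible receptor, at -0.17 ± 0.03 (adjusted p = 8.37e-06, limma), Spock2, a matrix proteoglycan, at -0.16, Icam1, an adhesion molecule of the apical membrane, at -0.13, and the keratin Krt7 at -0.18. Igfbp2 and Igfbp6, binding proteins of insulin-like growth factors, were lower by -0.25 ± 0.07 and -0.47 ± 0.17. At 16 weeks 2 of the 17 were lower, Gprc5a at -0.30 and Spock2 at -0.25, a share near the 12.2% of all genes tested called lower at that week. At that week 1 was higher, Gramd2a at 0.30 ± 0.09 (adjusted p = 0.00819, limma), named after its values were seen.

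Most other genes of the caveolar machinery were lower. Of 9 tested, 6 were lower over the 5 weeks and 0 higher, with a median of -0.16, against the same 20.6% of all genes. Cavin3, the third cavin of non-muscle cells, was lower by -0.24 ± 0.03 (adjusted p = 2.28e-10, limma). The EHD ATPases, which ring the neck of the caveola, were lower by -0.19 for Ehd4, -0.17 for Ehd2 and -0.16 for Ehd3. Plvap, the protein of the diaphragm that closes endothelial caveolae, was lower by -0.13, and Cav3, the caveolin of muscle, by -0.23. Pacsin2, Pacsin3 and Dnm2, which bend and cut membranes, were at 0.07, -0.08 and -0.02 and were not called. At 16 weeks the same count of 6 of 9 was lower, with a median of -0.31 and Ehd3 at -0.47 ± 0.12 (adjusted p = 0.00163, limma). At that week 12.2% of all genes tested were called lower.

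**Figure D4:**
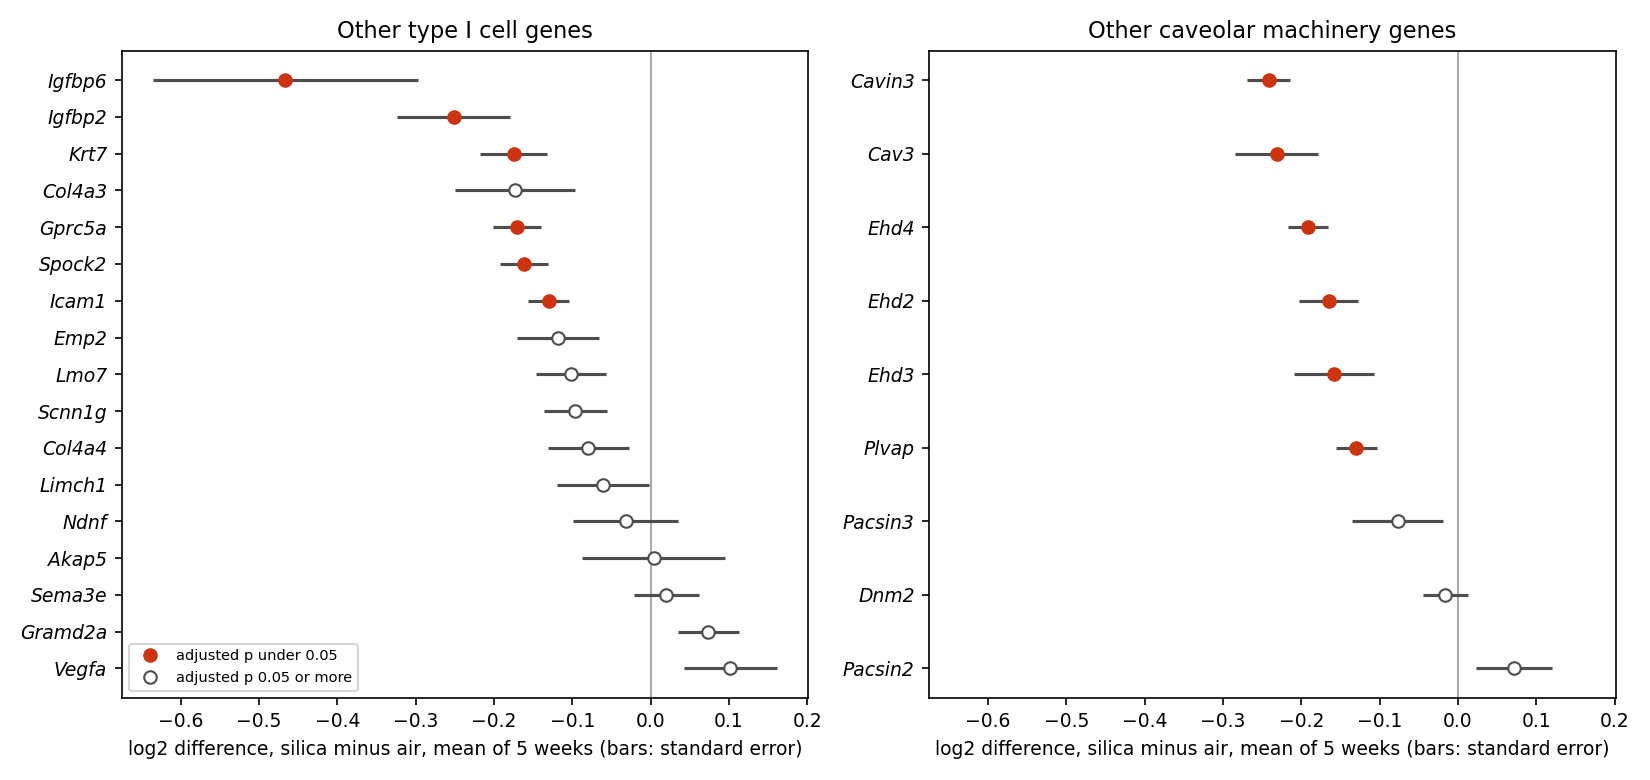
Log2 difference of silica minus air over the 5 weeks (horizontal axis) with standard errors for 17 other type I cell genes (left) and 9 other caveolar machinery genes (right), with filled points where the adjusted p was under 0.05. All filled points, 6 in each panel, lie below 0.

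Counts for regulators of the type I cell and targets of YAP and TAZ were near the shares of all genes tested. Of 10 tested, 3 were lower and 1 higher over the 5 weeks, with a median of -0.05, where 20.6% of all genes tested were lower and 14.6% higher. Ajuba, a LIM protein that restrains Hippo signalling, was at -0.17 (adjusted p = 7.4e-06, limma), and the transcription factor Gata6 was at -0.15 (adjusted p = 0.0067, limma). Of 9 genes of the transitional state between type II and type I cells, 2 were lower and 3 higher, against the same 20.6% and 14.6% of all genes tested. Lgals3, galectin 3, was at 0.45 ± 0.04 (adjusted p = 2.28e-12, limma), and the keratin Krt8 at -0.14 ± 0.02 (adjusted p = 2.61e-06, limma). Macrophages also make much Lgals3, and its cell of origin was not tested.

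Genes of other lung cell types were higher or lower in the same lungs. Of 10 type II cell genes, 8 were higher and 0 lower over the 5 weeks, with a median of 0.24, against 14.6% of all genes tested called higher. The protease Ctsh was at 0.44 and the mucin Muc1 at 0.53. From rat to rat within groups none of the 10 genes went with the type II list, with r from -0.336 for Rtkn2 to 0.089 for Clic5 (permutation, adjusted p = 0.22 or more). Of 10 general endothelial genes 10 were lower, where 20.6% of all genes tested were, with a median of -0.25, among them Vwf at -0.32 and Tie1 at -0.27. Of 7 genes of the alveolar capillaries 6 were lower, with a median of -0.31, among them Aplnr at -0.36 and Apln at -0.31. Plvap is in this list and in the caveolar one. At 16 weeks the mean level of the 10 endothelial genes ran from 11.17 to 11.33 in air rats and from 10.73 to 10.93 in silica rats. Endothelium expresses the 4 caveolar genes as well, and its part in their values was not tested.

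**Figure D5:**
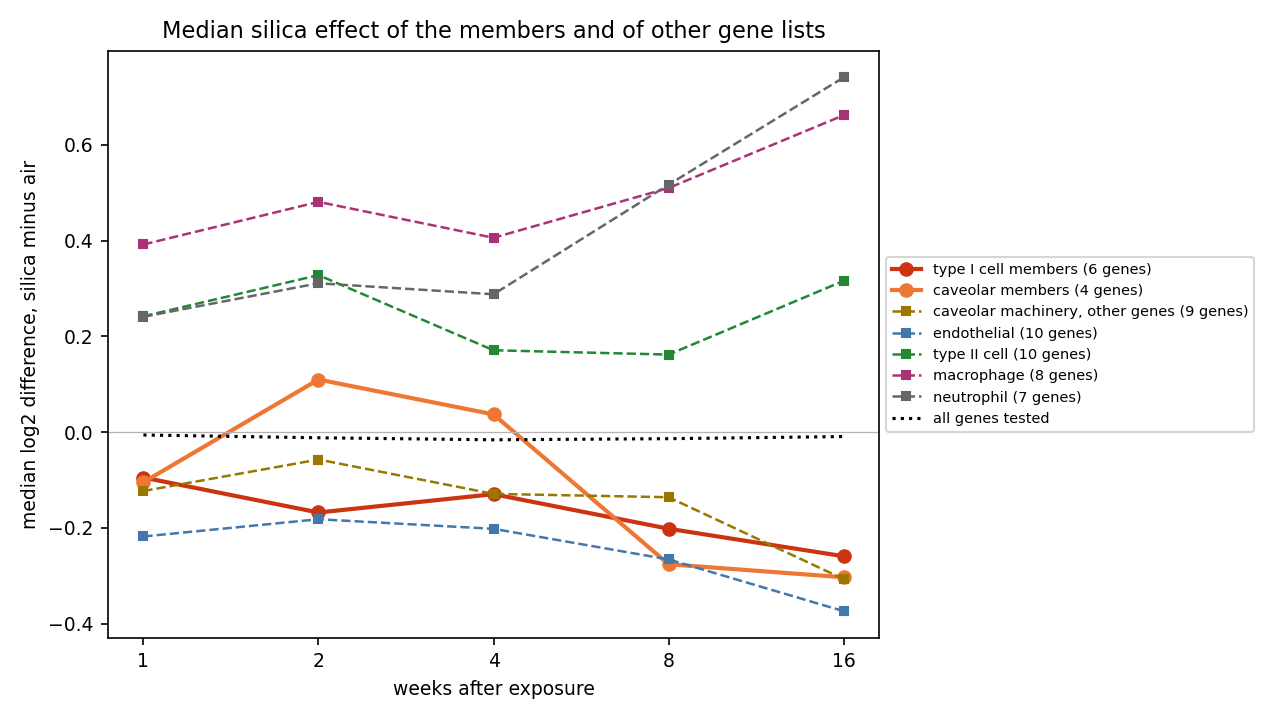
Median log2 difference of silica minus air (vertical axis) by weeks after exposure for the 6 type I cell genes, the 4 caveolar genes, other lists and all genes tested. At 16 weeks the type I cell genes (-0.26), the caveolar genes (-0.30) and the endothelial list (-0.37) lie below 0, and the type II cell list (0.32) lies above it.

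Ager and Aqp5 also went with the endothelial list from rat to rat within groups. In a family of 130 correlations of a member with a list, Ager gave r = 0.501 (permutation p = 0.00024, adjusted 0.012) and rho = 0.466 (permutation p = 0.00058, adjusted 0.028), and r = 0.444 without the 2 farthest rats. Aqp5 gave r = 0.478 (permutation p = 8e-05, adjusted 0.01) and rho = 0.463 (permutation p = 0.00033, adjusted 0.028), and also r = 0.444 without the 2 farthest. With the alveolar capillary list Aqp5 gave r = 0.497 (permutation p = 0.00027, adjusted 0.012) and rho = 0.474 (permutation p = 0.00065, adjusted 0.028), and r = 0.43 without the 2 farthest. For the endothelial list, the caveolar genes gave r from -0.396 for Cavin2 to 0.222 for Cav2, none with an adjusted value under 0.05. These permutations also crossed the stretches of the deposited order, whose part in the correlations was not tested.

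Genes of inflammatory cells were higher in the same lungs. Over the 5 weeks 6 of 8 macrophage genes were higher and 1 lower, and 6 of 7 neutrophil genes were higher and 0 lower, where 14.6% of all genes tested were higher. Mmp12, a macrophage elastase, was at 2.29, and Cd177, a neutrophil surface protein, at 2.23. At 16 weeks the mean level of the 7 neutrophil genes ran from 6.80 to 6.89 in air rats and from 7.50 to 8.01 in silica rats. Of the other lists, 2 of 3 lymphatic, 2 of 9 fibroblast and pericyte, 2 of 6 smooth muscle, 1 of 4 mesothelial and 5 of 7 lymphocyte genes were lower and 0 higher, where 20.6% of all genes tested were lower. The fibroblast and pericyte and the mesothelial counts are near that share. None of 2 adipocyte and of 9 airway genes was called over the 5 weeks, and 2 of the 9 airway genes, Rsph1 and Tekt1, were lower at 16 weeks, with a list median of -0.54. None of 6 heart muscle genes was called over the 5 weeks. At 4 weeks 1, Cox6a2, was higher, with a list median of 2.08. These 3 genes were named after their values were seen. Of the heart muscle genes, 5 were lower at 16 weeks, with a median of -3.16, and their mean level ranged from 5.04 to 10.16 between rats. Of all genes tested, 12.2% were called lower at 16 weeks and 2.78% higher at 4 weeks. With the heart muscle mean as a covariate, 6 of the 10 genes were lower over the 5 weeks and 5 at 16 weeks. The part of the other cells in the values of the 10 genes was not tested.

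The deposited order of the arrays holds 8 stretches, of which 4 hold both silica and air rats of every week and 4 hold silica rats alone. No label says what they are. Within each of the 4 mixed stretches, the silica rat was compared with the air rat of the same week, and the mean over 5 weeks was below 0 in all 4 for Ager (-0.17 to -0.21), Aqp5 (-0.18 to -0.31), Pdpn (-0.10 to -0.16), Hopx (-0.04 to -0.20), Clic5 (-0.16 to -0.24) and Cav2 (-0.14 to -0.29). For Cav1 it ran from -0.38 to 0.15, for Cavin1 from -0.35 to 0.25, for Rtkn2 from -0.26 to 0.08 and for Cavin2 from -0.24 to 0.12. The Hopx mean was -0.04 (SD 0.07) in stretch 1, with 3 of 5 pairs lower. In stretch 3 it was -0.05 (SD 0.13), with 2 of 5 pairs lower. Without stretch 5, which holds air rat 1 and silica rat 1 of the 2-week rats, Cav1 and Cavin1 were called higher at 2 weeks. Without stretch 1, which holds air rat 2 of that week, Cav1 was called higher at 2 weeks.

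The array files carry no read depth, so precision rests on 4 and 8 rats per group and on probe brightness. In 1 array, silica rat 3 at 4 weeks, the deposited signals stood 2 lines out of place and were set back. Arrays had 11225 to 12594 genes detected. Of all genes called over the 5 weeks, 58.5% were lower, and 73.5% were so with median scaling in place of quantile normalization. That share was 48.9%, 56.7%, 46.5% and 53.7% at 2, 4, 8 and 16 weeks, and 76.1%, 74.3%, 25.3% and 64.0% with median scaling. Of the called trends, 44.1% of those in the silica effect and 61.7% of those in air rats were falling, and 6.67% and 85.1% with median scaling. With cyclic loess the share lower was 38.5% at 2 weeks and 44.5% at 4 weeks. The number of the 10 genes called over the 5 weeks was 6 with each of these.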

How the data were processed

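The authors deposited a table of non-normalized probe intensity with a detection p-value per gene and array, per the file headers, and a table of processed log2 values whose steps the headers do not give. The submitters' processing notes name BeadStudio, lumi and limma. Chip and scan are not given in the sources used here.

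Of 21794 table lines 2 were blank. Signals of 1 array were moved back by 2 lines from gene line 17 on. Its correlation with the array of medians was 0.232 before and 0.998 after. Background was corrected by normexp, with the controls inferred from detection p-values and an offset of 16. The corrected intensities were quantile normalized and then put on the log2 scale. A gene was kept where 4 or more arrays detected it at p under 0.05, and its brightest line was used. One limma fit (limma 3.58.1, R 4.3.3) of 10 group means over 60 arrays, with 50 residual degrees of freedom, gave every contrast, tested on simulated data first. Trends are linear in log2 weeks. Correlations used Python 3.11.15 with numpy 2.4.6 and 100000 permutations within groups. Rats are the replicates, and the array files give no depth.

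The members and the lists were chosen with earlier results of these data known. Named genes were all members, at most 2 of each other list with the smallest adjusted p over the 5 weeks, all called genes of the type I cell and caveolar lists, and the 5 genes most like Ager and Cav1. Alternatives covered background correction, normalization, filters, variance models, blocks, omission of each rat, and, chosen after seeing the data, the stretches of the deposited order. One gene of the type I cell list is not reported here and was left out of its counts.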

Additional observations from a re-analysis of the deposited data

Results flagged for a closer look

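Of 100 groups of a member gene at 1 week and treatment, 2 held a rat set apart from the others of its group, and chance sets 1 in 20 apart. Pdpn in silica rat 5 at 16 weeks read 12.55, above the next rat at 12.39 and the lowest at 12.27. Clic5 in silica rat 2 at 1 week read 12.18, above the next rat at 11.91 and the lowest at 11.70.

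A trend of the silica effect over time was called for 2 genes, in a test that called 0.776% of all genes tested as falling. The slope of the silica effect per doubling of weeks, on the log2 scale, was -0.0695 for Pdpn and -0.17 for Cavin1. The F-test among weeks called neither (adjusted p = 0.113 and 0.161, limma). Leaving out 1 rat ended the Pdpn call in 1 omission and the Cavin1 call in 25 of 60.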

How the results depend on the processing

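The count of 6 genes lower over the 5 weeks was 6 under every alternative run. The weekly counts of 0, 1, 0, 5 and 6 and the trend count of 2 moved with the setting. At 1 week 1 gene was called in the authors' values, with an intensity trend, with the heart muscle mean as covariate and with the stretch as a block, and 2 with array weights. At 2 weeks 3 were called without background correction, with an offset of 50, on genes detected on at least 30 arrays and with an intensity trend, 2 with cyclic loess, the authors' values or the stretch as a block, and 0 with each week fitted alone. At 8 weeks 0 were called with median scaling and 1 with each week fitted alone, at an adjusted p under 0.01 or without the silica-only stretches. At 16 weeks 3 were called with median scaling and 7 with each week fitted alone. Median scaling also called fewer of all genes tested, 403 in place of 1240 at 8 weeks and 1978 in place of 3159 at 16 weeks. Each week fitted alone called 409 of all genes tested in place of 1291 at 2 weeks, 751 at 8 weeks and 2727 at 16 weeks. At 8 weeks an adjusted p under 0.01 left 655 of all genes tested, and 476 were called without the silica-only stretches. The trend count was 0 with median scaling, at an adjusted p under 0.01 and without the silica-only stretches, and 1 with cyclic loess, no detection filter, array weights or the heart muscle covariate. The F-test called 1 gene without background correction, with an offset of 50, in the authors' values, on at least 30 arrays and with array weights, and 4 with the stretch as a block, under which 1 air trend was called. Without stretch 1, 3, 5 or 6 in turn, 3, 1, 5 and 0 genes were called at 2 weeks in either direction, of which 2, 1, 3 and 0 were lower, the 8-week count 3, 2, 2 and 4, and the trend count 1, 0, 2 and 0. The F-test called 1 gene without stretch 1, and 1 gene was called at 1 week without stretch 6. Fitting each week alone gives no value across weeks. The cause of these shifts was not tested.

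Leaving out 1 rat gave 0 to 1, 0 to 4, 0 to 1, 2 to 5 and 5 to 6 genes called in either direction from the first week studied to the last, 6 to 6 over the 5 weeks, 0 to 2 in the trend and the F-test, and 0 to 0 in the air trend. The labels do not say whether replicate numbers pair the rats, and the correlations cannot settle it. Air and silica rats of 1 number and week correlated at -0.344 to 0.385 over 20 pairs, with a median of -0.011 and 5 over 0.1. Those of 1 stretch and week correlated at -0.172 to 0.53, with a median of 0.155 and 13 of 20 over 0.1. With the replicate number as a block, 3 genes were called at 8 weeks and 1 by the F-test. That block called 1324 of all genes tested at 8 weeks. A chip block was not run, because the headers name no chip. Of 2390 recomputed values of single genes, 2211 kept direction and call, 67 lost and 42 gained a call, and 70 changed sign with no call on either side. Rtkn2 is limited by its low signal over background.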
